A study of Macaca mulatta with 51 samples.

Results

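Gastrocnemius skeletal muscle (SM) of obese rhesus macaques was compared between washout, when FGF21 treatment had been stopped for 16 weeks, and pre-treatment. The comparison covered all expressed genes of SM, 12617 of the 16033 genes in the count table, and used every SM library of those time points with counts, 13 of the 48 libraries of the series. Pre-treatment was represented by 6 animals and washout by 7. Each of the 6 pre-treatment animals also had a washout library, whereas animal 20456 had counts at washout but not pre-treatment. The study took punch biopsies of subcutaneous adipose tissue (AT) and SM from 10 animals at 3 time points, with the end of the 12 weeks of treatment (post-treatment) between them. It addressed how gene expression changes with FGF21 treatment and with the loss and regain of body weight. The washout comparison covers the time from before the first injection until long after the last one.

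The animals were non-diabetic, diet-induced obese Macaca mulatta that had eaten a high-fat, high-sucrose diet for at least 2 years. The cohort of 10, of which the SM groups are subsets, comprised 5 males and 5 ovariectomized females aged 11 to 22 years. Treatment was native human FGF21, injected under the skin once a day in increasing doses. The same animals served as their own controls and there was no vehicle group, so that time, diet, age, repeated biopsy and FGF21 could not be told apart.

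FGF21 is an endocrine fibroblast growth factor that signals through FGF receptors together with the co-receptor beta-klotho. Gastrocnemius is a locomotor muscle of mixed fiber types in which fast fibers depend more on glycolysis and slow fibers on mitochondrial respiration. Muscle adjusts its protein content through insulin, the myostatin and BMP branches of the TGF-beta family, Wnt signaling and the ubiquitin-proteasome system.

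The libraries were of similar depth, with 14455195 to 20292476 counts on genes pre-treatment (median 17522048) and 15041909 to 20164303 at washout (median 17616535). Levels are given in CPM, counts relative to the library total after TMM normalization, which corrects the totals for differences in composition. The label of the tissue was borne out by markers of muscle fibers, whose 9 members in the table summed to 111420 to 151797 CPM pre-treatment and 136616 to 209771 CPM at washout. Adipocyte markers summed to 879 to 1943 and 746 to 1838 CPM. The identifiers of the libraries fell into 3 number series, of unstated meaning, that were unevenly spread over the time points. Of the pre-treatment libraries, 3 belonged to the first series, 1 to the middle and 2 to the last, but at washout 1 belonged to the middle and 6 to the last, so that only animals 19832 and 20275 had both libraries in 1 series. The pre-treatment library of animal 19832 stood apart from the others, with the lowest total and the largest number of genes detected, 14649 compared to 13275 to 14139 in the other SM libraries of both time points.

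In SM at washout, 8 genes were differentially expressed (DE) compared to pre-treatment and all of them rose (DDI2, SKIL, LRP6, EPHA3, GFPT1, PHF20L1, RC3H2 and PYGO1). A gene counted as DE if edgeR's quasi-likelihood test, fitted with terms for time point and for animal, gave a Benjamini-Hochberg adjusted p under 0.05 and its log2 fold change exceeded 0.26 in size. Fitted levels were higher at washout for 43.6% of the genes tested and lower for 56.4%. The 8 genes were 0.0634% of those tested, and the share DE and lower was 0.0%. At an unadjusted p under 0.05, 707 genes (5.6%) were higher at washout and 984 (7.8%) were lower, and DESeq2 called 155 genes higher and 24 lower. In all 6 paired animals, 611 genes were higher (4.84%) and 681 were lower (5.4%). Every washout library exceeded every pre-treatment library for 152 genes (1.2%) and lay below all of them for 39 (0.309%). The calls rested on few libraries. Without the pre-treatment library of animal 19832, edgeR called 0 genes (957 at an unadjusted p under 0.05, smallest adjusted p 0.0539), and without animal 22130 it also called 0 (1538 at an unadjusted p under 0.05, smallest adjusted p 0.0510). When the model also held the identifier series, 713 genes were DE and higher (5.65%) and 642 DE and lower (5.09%), all 8 genes among the former.

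**Figure D1:**
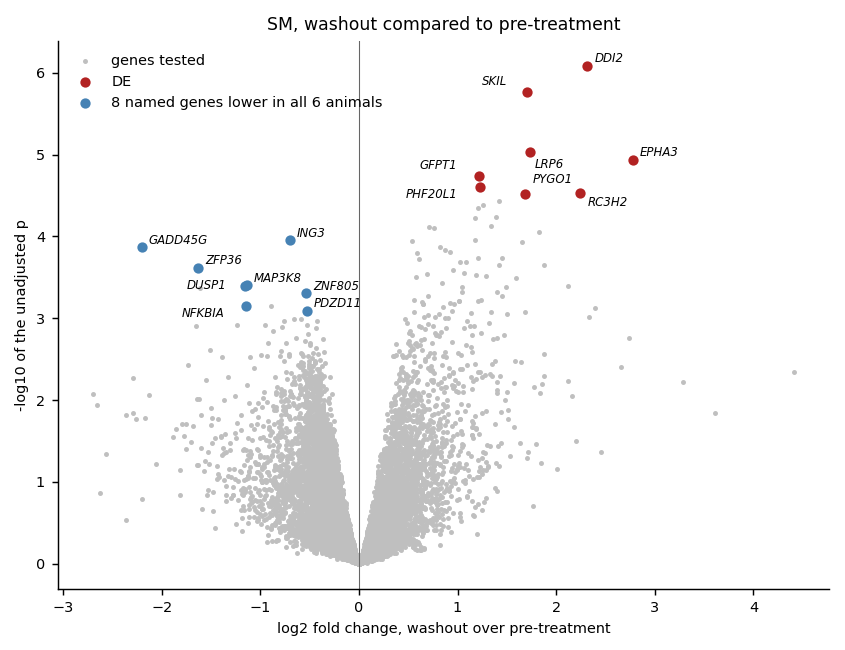
All 12617 genes tested in SM, with the log2 fold change of washout over pre-treatment on the horizontal axis and -log10 of the unadjusted p of edgeR's quasi-likelihood test on the vertical axis. The 8 DE genes (red) lie on the side of increases, and the 8 named genes lower in all 6 animals (blue) lie on the other side without passing the adjusted limit.

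DDI2 had the smallest adjusted p. It encodes an aspartic protease that cleaves and thereby activates NFE2L1, the transcription factor that drives proteasome subunit genes when proteasome capacity is short. DDI2 (ENSG00000197312) measured 1.81 to 3.19 CPM pre-treatment (median 2.16) and 8.25 to 16.2 CPM at washout (median 10.4). Every washout library lay above every pre-treatment library, and the post-treatment mean was 3.01 CPM. The log2 fold change was 2.32 (SE 0.29, edgeR adjusted p = 0.0103), a fitted 4.98-fold difference, and DDI2 was higher in all 6 animals. RSC1A1, a regulator of sodium-glucose transport with a row of its own in the table, overlaps DDI2 in the RefSeq annotation of another macaque assembly, so reads of these genes may not be cleanly separated. RSC1A1 measured 3.59 to 11 CPM pre-treatment and 7.89 to 20.4 CPM at washout, with overlapping groups and a log2 fold change of 0.88 (SE 0.24, edgeR adjusted p = 0.209).

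Most members of the proteasome list were fitted lower, unlike DDI2. Of 36 genes tested, which comprised the subunits of the proteasome and its assembly factors with DDI2 and NFE2L1, 30 were fitted lower and 6 higher, and the median of the log2 fold changes was -0.29 against -0.05 over all genes tested. At an unadjusted p under 0.05, 17 members (47.2%) were lower, where 7.8% of all genes were, and 2 (5.56%), DDI2 among them, were higher, where 5.6% of all genes were. Only DDI2 passed the adjusted limit. This list and those below were chosen with earlier results of these data known and got no test, so that their shares are descriptions only. PSMB1, a subunit of the catalytic core, had a log2 fold change of -0.59 (SE 0.17, edgeR adjusted p = 0.222) and was lower in all 6 animals, from 91.8 to 229 CPM pre-treatment to 72.7 to 114 CPM at washout. NFE2L1 itself measured 579 to 1731 CPM pre-treatment and 1297 to 1661 CPM at washout, with a log2 fold change of 0.29 (SE 0.32, edgeR adjusted p = 0.743).

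SKIL encodes SnoN, which binds SMAD proteins and represses transcription downstream of TGF-beta and myostatin. SKIL (ENSG00000136603) measured 5.19 to 11.5 CPM pre-treatment (median 8.15) and 16.6 to 40.5 CPM at washout (median 24.2). The groups did not overlap, the highest washout level belonged to animal 22130, and the post-treatment mean was 8.13 CPM. Its log2 fold change was 1.71 (SE 0.23, edgeR adjusted p = 0.0109). In the myostatin, activin and BMP list, 14 of 19 genes tested were fitted higher (median log2 fold change 0.12), 5 (26.3%) were higher at an unadjusted p under 0.05 and 0 were lower, against 5.6% and 7.8% of all genes. SKIL was the only DE member and is counted among the 5. BMPR2, the type II BMP receptor, followed with 9.69 to 21.0 CPM pre-treatment and 17.1 to 39.6 CPM at washout, higher in all 6 animals (log2 fold change 0.77, SE 0.19, edgeR adjusted p = 0.154). Myostatin (MSTN), the secreted inhibitor of muscle growth, overlapped fully between the groups, with 12.4 to 60.7 CPM pre-treatment and 12.9 to 39.7 CPM at washout (log2 fold change -0.24, SE 0.38, edgeR adjusted p = 0.822).

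LRP6 and PYGO1 are both components of canonical Wnt signaling. LRP6 is the co-receptor that binds Wnt with Frizzled at the cell surface, and PYGO1 joins the nuclear complex through which beta-catenin activates transcription. LRP6 (ENSG00000281324) measured 4.88 to 11.6 CPM pre-treatment (median 6.93) and 19.8 to 30.1 CPM at washout (median 24.8). All washout libraries lay above all pre-treatment libraries, and the log2 fold change was 1.73 (SE 0.26, edgeR adjusted p = 0.0364). PYGO1 (ENSG00000171016) measured 4.95 to 9.63 CPM pre-treatment (median 7.59) and 14.98 to 37.8 CPM at washout (median 25.1). Its groups were likewise apart, with the largest washout level in animal 19832, and the log2 fold change was 1.68 (SE 0.29, edgeR adjusted p = 0.0476). The Wnt list, which held LRP6 but not PYGO1, had 17 of 23 genes fitted higher and a median of 0.12. At an unadjusted p under 0.05 its counts were 3 higher (13.0%), LRP6 among them, and 0 lower, against 5.6% and 7.8% of all genes. GSK3B, the kinase that marks beta-catenin for destruction and also restrains glycogen synthase, measured 6.82 to 19.1 CPM pre-treatment and 21.1 to 34.6 CPM at washout. The GSK3B groups did not overlap although the adjusted limit was missed (log2 fold change 0.94, SE 0.23, edgeR adjusted p = 0.147).

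RC3H2, or roquin-2, is an RNA-binding ubiquitin ligase that promotes decay of mRNAs carrying stem-loop elements. RC3H2 (ENSG00000056586) measured 1.94 to 8.39 CPM pre-treatment (median 3.87) and 14.6 to 26.7 CPM at washout (median 21.5). No libraries of the groups overlapped. The log2 fold change was 2.24 (SE 0.38, edgeR adjusted p = 0.0476). Among 28 tested regulators of mRNA decay, 15 were fitted higher and 13 lower (median 0.04), so that members differed in direction. The unadjusted p was under 0.05 for 8 that were higher (28.6%), RC3H2 among them, and 4 that were lower (14.3%), against 5.6% and 7.8% of all genes. ZFP36, which targets AU-rich mRNAs, had lower values at washout and is described with the decreases.

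GFPT1 catalyses the rate-limiting step of the hexosamine pathway, which diverts fructose 6-phosphate from glycolysis to the sugar donor of protein glycosylation. GFPT1 (ENSG00000198380) measured 7.36 to 24.6 CPM pre-treatment (median 20.4) and 32.7 to 48.2 CPM at washout (median 42.1). The pre-treatment level of animal 19832 was far below the other 5, which measured 15.8 CPM or more, and all of these lay below every washout library. The log2 fold change was 1.22 (SE 0.20, edgeR adjusted p = 0.0460), and it was 1.03 (adjusted p = 0.0581) without that library.

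PHF20L1, a Tudor and PHD finger protein that binds methylated lysines in histones, measured 4.65 to 8.72 CPM pre-treatment (median 6.55) and 12.8 to 17.9 CPM at washout (median 14.9). This gene (ENSG00000129292) had little spread within either group and no overlap between them. Its log2 fold change was 1.23 (SE 0.20, edgeR adjusted p = 0.0476). A list of 22 other chromatin regulators and coactivators with long transcripts had 21 members fitted higher, the median of their log2 fold changes being 0.44. At an unadjusted p under 0.05, 12 members (54.5%) were higher, compared to 5.6% of all genes, and for 9 of the 22 every washout library exceeded every pre-treatment library (1.2% of all genes). The list median was above 0 in each of the 6 animals, from 0.29 to 0.86, yet none of its members was DE. Because the list was chosen with earlier results of these data known, its shares are no independent result. NCOA2, a steroid receptor coactivator, had the smallest adjusted p among them, with 4.26 to 15.3 CPM pre-treatment (median 13.0) and 25.6 to 49.7 CPM at washout (median 34.5). The NCOA2 groups were apart, and the log2 fold change was 1.595 (SE 0.34, edgeR adjusted p = 0.1002).

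EPHA3, an ephrin receptor tyrosine kinase with roles in axon guidance and in stromal progenitors, was close to the limit of detection. EPHA3 (ENSG00000044524) measured 0 to 0.147 CPM pre-treatment (median 0.0615) and 0.326 to 1.03 CPM at washout (median 0.454), from 0 to 3 counts and 5 to 15 counts per library. In all, 9 counts pre-treatment and 66 at washout gave a ratio per total count of 6.28, with a 95% exact interval of 3.12 to 14.3 that covers counting error only. The fitted log2 fold change was 2.78 (SE 0.51, edgeR adjusted p = 0.0364), and it depends on the prior count at such levels.

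All 8 genes were higher at washout in 6 of 6 animals. For 7 of them, all but EPHA3, every washout library also exceeded every post-treatment library, a pattern shown by 23 of the genes tested (0.182%), while 7 genes (0.0555%) showed its reverse. The 8 genes also shared low to moderate levels, with pre-treatment means from 0.0771 to 18.6 CPM. Under the 26 alternative settings tried, their log2 fold changes stayed between 1.01 and 4.29. Without the pre-treatment library of animal 19832 they lay between 1.03 and 2.70, with adjusted p from 0.0539 to 0.159.

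**Figure D2:**
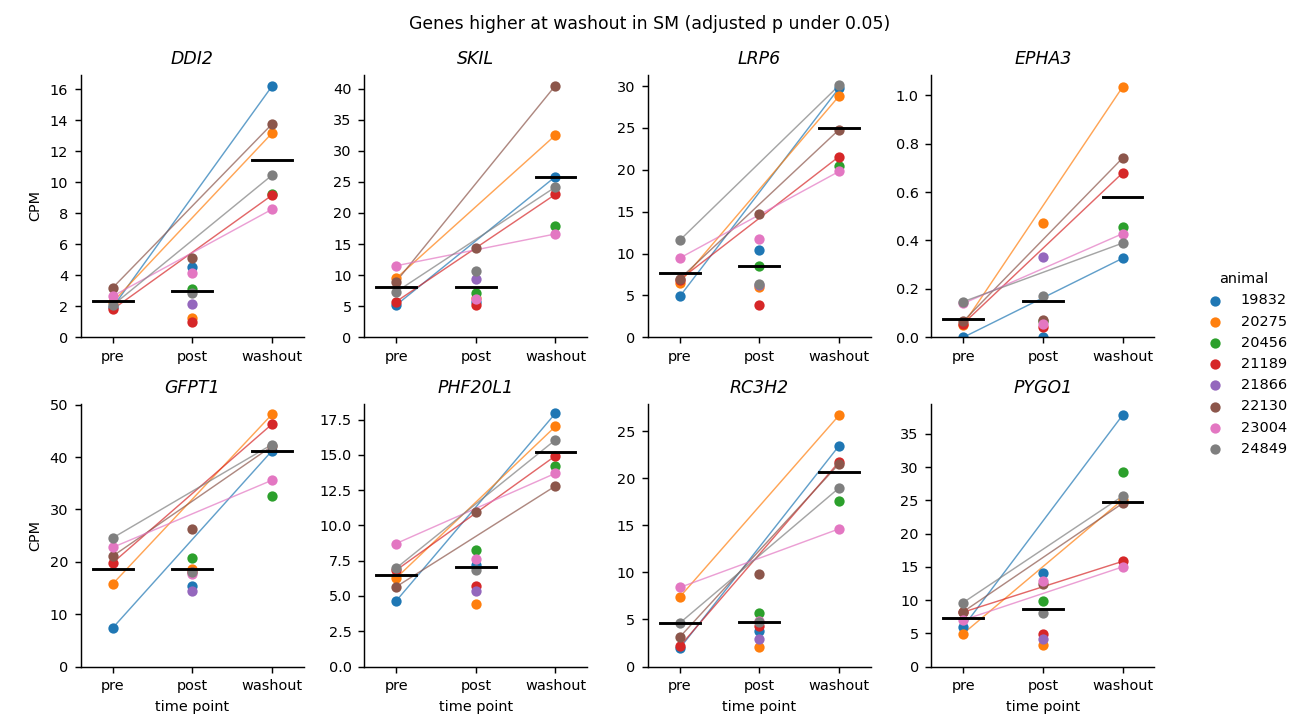
Levels in CPM (linear axis) of the 8 DE genes by time point in SM, with 1 point per library colored by animal. Lines join the pre-treatment and washout libraries of an animal, and bars mark the group means. In every panel all washout points lie above all pre-treatment points, and except for EPHA3 they also lie above all post-treatment points.

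A further 15 genes had an adjusted p between 0.05 and 0.075 and 13 of these were higher at washout. LNPEP, FILIP1, CACNA2D1 and KDM5A are given here as examples chosen after their values were seen. LNPEP, the insulin-regulated aminopeptidase that travels with GLUT4 in storage vesicles, measured 6.51 to 15.3 CPM pre-treatment (median 10.4) and 15.2 to 37.1 CPM at washout (median 27.2). Its groups touched at their edges and 5 of 6 animals were higher (log2 fold change 1.26, SE 0.22, edgeR adjusted p = 0.0514). CACNA2D1, the alpha-2/delta-1 subunit of voltage-gated calcium channels, measured 29.2 to 104 CPM pre-treatment (median 65.8) and 155 to 281 CPM at washout (median 201). It was the most abundant of these genes, was higher in 6 of 6 animals and showed no overlap (log2 fold change 1.83, SE 0.34, edgeR adjusted p = 0.0649). FILIP1, which binds filamin A, measured 19.99 to 38.3 CPM pre-treatment and 41.2 to 94.9 CPM at washout, also without overlap (log2 fold change 1.34, SE 0.25, edgeR adjusted p = 0.0614). KDM5A, a histone H3 lysine demethylase, measured 6.26 to 15.4 CPM pre-treatment and 14.5 to 28.0 CPM at washout, with 1 animal of 6 lower (log2 fold change 1.18, SE 0.23, edgeR adjusted p = 0.0706).

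PIK3CA, the catalytic subunit of PI3-kinase that relays the insulin signal, had the smallest adjusted p of the insulin signaling list. It measured 13.9 to 18.1 CPM pre-treatment (median 14.99) and 19.0 to 30.8 CPM at washout (median 25.7). The groups were apart and all 6 animals were higher, with a log2 fold change of 0.76 (SE 0.14, edgeR adjusted p = 0.0614). Of 26 insulin signaling genes tested, 21 were fitted higher with a median of 0.20, and the median was above 0 in each of the 6 animals (0.11 to 0.40). However, 3 members were higher at an unadjusted p under 0.05, or 11.5% compared to 5.6% of all genes, and none was DE. SLC2A4, which encodes the glucose transporter GLUT4, measured 355 to 587 CPM pre-treatment and 339 to 559 CPM at washout (log2 fold change 0.04, SE 0.26, edgeR adjusted p = 0.960). With the identifier series in the model, 11 of the 26 members were DE and higher and 0 were DE and lower, against 5.65% and 5.09% of all genes.

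No decrease passed the test. Of the 681 genes lower at washout in all 6 animals, the 8 with the smallest p and a mean of at least 1 CPM are given as values. ING3, a subunit of the NuA4 histone acetyltransferase complex, measured 13.6 to 23.7 CPM pre-treatment (median 15.4) and 7.58 to 11.9 CPM at washout (median 10.0). It had the smallest p among decreases and its groups did not overlap (log2 fold change -0.70, SE 0.13, edgeR adjusted p = 0.0706). ZNF805, a zinc finger protein, was likewise apart, with 16.03 to 19.0 CPM pre-treatment and 10.6 to 14.1 CPM at washout (log2 fold change -0.54, SE 0.12, edgeR adjusted p = 0.123).

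The other 6 of these 8 genes overlapped between the groups. GADD45G, a stress-induced partner of p38 and JNK pathway kinases, measured 18.7 to 258 CPM pre-treatment (median 24.7) and 2.33 to 19.9 CPM at washout (median 11.03). The highest value belonged to animal 19832, and the groups overlapped slightly (log2 fold change -2.20, SE 0.43, edgeR adjusted p = 0.0745). ZFP36 measured 16.1 to 75.8 CPM pre-treatment (median 26.3) and 4.89 to 17.7 CPM at washout (median 10.6), with overlap only at the edges (log2 fold change -1.63, SE 0.34, edgeR adjusted p = 0.0898). DUSP1, a phosphatase that switches off MAP kinases and is induced by glucocorticoids, measured 83.8 to 259 CPM pre-treatment (median 171) and 30.3 to 139 CPM at washout (median 82.5). The DUSP1 groups overlapped more widely (log2 fold change -1.16, SE 0.26, edgeR adjusted p = 0.112). MAP3K8, a kinase upstream of ERK in inflammatory signaling, had medians of 16.2 and 9.16 CPM (log2 fold change -1.14, SE 0.25, edgeR adjusted p = 0.112). NFKBIA, the inhibitor and target of NF-kappaB, had medians of 48.9 and 23.6 CPM (log2 fold change -1.14, SE 0.27, edgeR adjusted p = 0.138). PDZD11, a PDZ domain protein that interacts with plasma membrane transporters, had medians of 32.0 and 20.7 CPM (log2 fold change -0.53, SE 0.13, edgeR adjusted p = 0.147). Without the pre-treatment library of animal 19832 the 8 values lay between -1.94 and -0.45, with adjusted p from 0.183 to 0.463. With the identifier series in the model all 8 were DE, where 5.09% of all genes were DE and lower. The 8 had been picked by their small p in these same libraries, so that this count is no independent result.

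**Figure D3:**
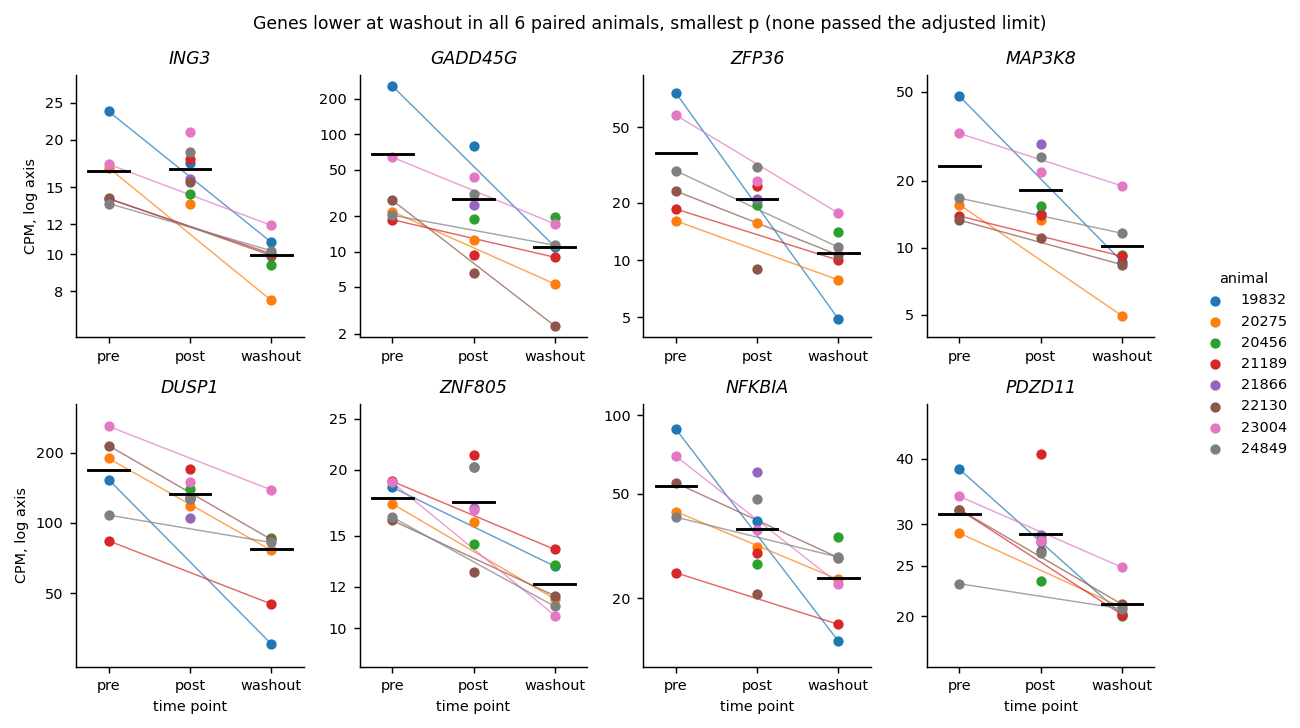
Levels in CPM (log axis) by time point in SM of the 8 genes with the smallest p among those lower at washout in all 6 paired animals, with 1 point per library colored by animal and bars at the group means. The ING3 and ZNF805 groups are apart, whereas the others overlap and animal 19832 has the highest pre-treatment level of ING3, GADD45G, ZFP36, MAP3K8, NFKBIA and PDZD11.

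Immediate early genes, which respond within minutes to many stimuli, were mostly fitted lower. Of 24 genes tested, 20 were fitted lower and 4 higher, with a median of -0.37, and 6 (25%) were lower at an unadjusted p under 0.05 where 7.8% of all genes were. The list median was above 0 in animal 22130 only (0.36) and lowest at -1.13 in animal 19832, and the fitted median was -0.15 without the pre-treatment library of animal 19832. FOS, a subunit of AP-1, measured 22.6 to 148 CPM pre-treatment and 6.40 to 106 CPM at washout, lower in 6 of 6 animals (log2 fold change -1.13, SE 0.52, edgeR adjusted p = 0.366). MYC, a growth-promoting transcription factor, was also lower in 6 of 6 (log2 fold change -0.81, SE 0.31, edgeR adjusted p = 0.305). IER3, a survival factor induced by ERK, had a log2 fold change of -0.73 (SE 0.25, edgeR adjusted p = 0.266). Among stress genes, DDIT4, an inhibitor of mTORC1 induced by glucocorticoids and energy stress, had a log2 fold change of -1.14 (SE 0.36, edgeR adjusted p = 0.241) and was lower in 6 of 6 animals. DDIT3, the CHOP factor of the unfolded protein response, had one of -0.74 (SE 0.27, edgeR adjusted p = 0.290). In the heat shock and folding list that holds DDIT3, 15 of 27 members were fitted higher and 12 lower (median 0.03).

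Genes for protein synthesis and respiration had fitted levels that were mostly lower at washout, without a DE member. All 74 cytosolic ribosomal protein genes tested were fitted lower (median -0.34), 14 of them (18.9%) at an unadjusted p under 0.05, where 7.8% of all genes were. In all 6 animals 15 of the 74 (20.3%) were lower, compared to 5.4% of all genes. RPS24 had a log2 fold change of -0.46 (SE 0.18, edgeR adjusted p = 0.305) and RPL34 one of -0.58 (SE 0.24, edgeR adjusted p = 0.322). Ribosomal protein genes have many processed pseudogenes, to which part of their reads may be assigned. Of 68 mitochondrial ribosomal protein genes, 61 were fitted lower (median -0.26) and 24 (35.3%) were lower at an unadjusted p under 0.05 against the same 7.8%, MRPL40 with the smallest adjusted p among them (log2 fold change -0.50, SE 0.15, adjusted p = 0.226). Of 64 nuclear genes of the respiratory chain, 59 were fitted lower (median -0.34) and 25 (39.1%) passed that unadjusted limit downward, again against 7.8%. NDUFB3, a small subunit of complex I, measured 12.9 to 30.5 CPM pre-treatment and 11.5 to 19.2 CPM at washout (log2 fold change -0.53, SE 0.16, edgeR adjusted p = 0.234). COX6C, a subunit of cytochrome c oxidase, measured 123 to 281 CPM pre-treatment and 96.7 to 156 CPM at washout (log2 fold change -0.60, SE 0.19, edgeR adjusted p = 0.247). The lists were not uniform across animals. The respiratory chain median ran from -1.02 in animal 22130 to 0.14 in animal 24849, and that of cytosolic ribosomal proteins from -0.82 in animal 19832 to 0.07 in animal 24849. With the identifier series in the model, 40 cytosolic ribosomal protein genes and 15 respiratory chain genes were DE and lower, compared to 0 and 1 DE and higher, where 5.09% of all genes were DE and lower and 5.65% DE and higher.

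**Figure D4:**
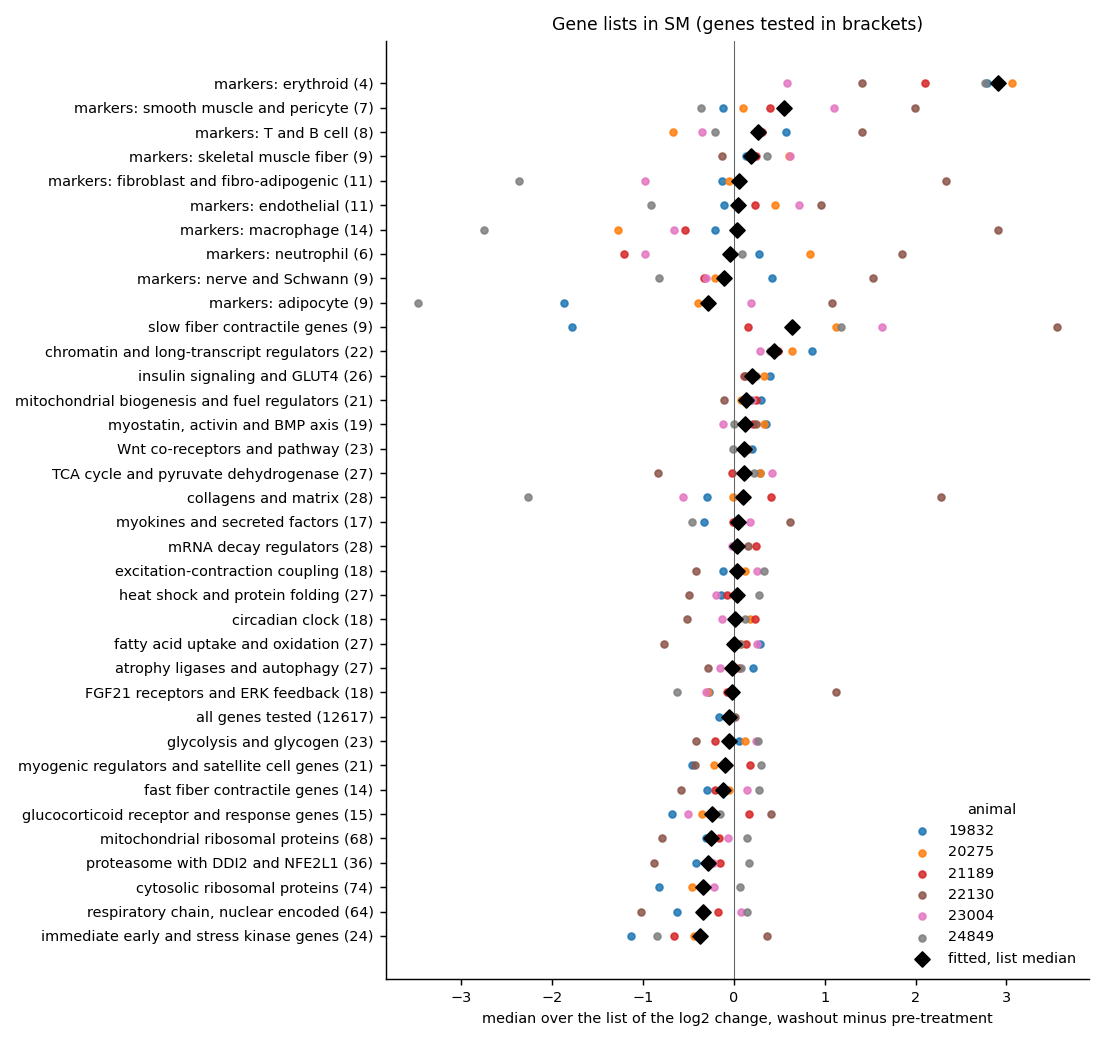
Median over each gene list of the log2 change from pre-treatment to washout in SM, with 1 colored point per paired animal and a diamond at the median of the fitted log2 fold changes, and the number of genes tested in brackets. The chromatin and insulin lists lie above 0 in every animal, the ribosomal, proteasome and respiratory lists lie mostly below 0, and collagens and several cell type markers spread widely between animals 22130 and 24849.

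Contractile genes varied widely between animals and none was DE. All 9 slow fiber genes tested were fitted higher (median 0.64), but none passed an unadjusted p of 0.05 and the median by animal ran from -1.78 in animal 19832 to 3.56 in animal 22130. The fitted median was 1.18 without the pre-treatment library of animal 19832 and 0.19 with the identifier series in the model. MYH7, the slow myosin heavy chain, measured 2.39 CPM in the pre-treatment library of animal 22130 and reached 4177 CPM in the others, with a median of 3076, and measured 1663 to 17661 CPM at washout (median 7338). The groups overlapped widely (log2 fold change 1.21, SE 0.87, edgeR adjusted p = 0.572). MYL6B, a slow myosin light chain, had a log2 fold change of 0.64 (SE 0.44, edgeR adjusted p = 0.550). Of 14 fast fiber genes, 4 were fitted higher and 10 lower (median -0.12), a median that turned to 0.13 with the identifier series in the model. PVALB, the calcium buffer of fast fibers, measured 99.3 to 1185 CPM pre-treatment and 47.8 to 465 CPM at washout (log2 fold change -0.79, SE 0.30, edgeR adjusted p = 0.305). MYH2 and MYH1, the IIa and IIx myosin heavy chains, whose similar sequences can share reads, had log2 fold changes of 0.59 (SE 0.36, edgeR adjusted p = 0.494) and 0.18 (SE 0.37, edgeR adjusted p = 0.870).

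The giant sarcomere proteins were apart between groups without passing the test. Titin (TTN) measured 18341 to 34073 CPM pre-treatment and 42231 to 59635 CPM at washout (log2 fold change 0.73, SE 0.36, edgeR adjusted p = 0.395). Nebulin (NEB), which sets thin filament length, measured 8628 to 15452 CPM and 16010 to 25064 CPM (log2 fold change 0.78, SE 0.33, edgeR adjusted p = 0.335). Skeletal actin (ACTA1) and muscle creatine kinase (CKM) overlapped, with a log2 fold change of 0.18 each (SE 0.30 and 0.33, edgeR adjusted p = 0.839 and 0.851). Of 18 genes of excitation-contraction coupling, 9 were fitted higher and 9 lower, and the smallest adjusted p was that of CHRNB1, the acetylcholine receptor beta subunit (log2 fold change -0.49, SE 0.23, adjusted p = 0.375).

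Metabolic genes of muscle showed no DE member and no unadjusted p under 0.05 in 3 lists. Glycolysis and glycogen genes had a median of -0.06 over 23 members, the TCA cycle and pyruvate dehydrogenase 0.11 over 27, and fatty acid uptake and oxidation 0.01 over 27. The muscle glycogen phosphorylase PYGM and the phosphofructokinase PFKM had log2 fold changes of 0.12 (SE 0.36, edgeR adjusted p = 0.912) and 0.09 (SE 0.30, edgeR adjusted p = 0.917). PFKFB3, which makes the activator of phosphofructokinase, ranged over 32.0 to 1558 CPM pre-treatment and 73.5 to 305 CPM at washout (log2 fold change -1.42, SE 0.78, edgeR adjusted p = 0.439). PDK4, the fasting-induced inhibitor of pyruvate dehydrogenase, ranged over 82.1 to 1090 and 59.3 to 854 CPM (log2 fold change 0.43, SE 0.77, edgeR adjusted p = 0.849). SUCLG1, the alpha subunit of succinyl-CoA ligase, had a log2 fold change of -0.29 (SE 0.17, edgeR adjusted p = 0.460). For fat oxidation, the carnitine transferase CPT1B had a value of -0.09 (SE 0.24, edgeR adjusted p = 0.898), the mitochondrial thioesterase ACOT13 one of -0.31 (SE 0.17, edgeR adjusted p = 0.434) and the uncoupling protein UCP3 one of 0.15 (SE 0.34, edgeR adjusted p = 0.887).

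Of 21 tested regulators of mitochondrial biogenesis and fuel use, 2 had every washout library above every pre-treatment library, as did 1.2% of all genes. PRKAB2 and PPARA were named after their values were seen. PRKAB2, the muscle beta subunit of AMP-activated kinase, measured 8.84 to 62.0 CPM pre-treatment (median 38.8) and 72.7 to 146 CPM at washout (median 114). All washout libraries lay above the pre-treatment ones, but the pre-treatment spread was wide (log2 fold change 1.51, SE 0.56, edgeR adjusted p = 0.294). PPARA, the fatty acid receptor that drives oxidation genes, measured 36.3 to 50.8 CPM and 53.9 to 96.6 CPM, also apart (log2 fold change 0.71, SE 0.27, edgeR adjusted p = 0.305). The coactivators PPARGC1B and PPARGC1A had log2 fold changes of 0.59 (SE 0.20, edgeR adjusted p = 0.274) and 0.50 (SE 0.32, edgeR adjusted p = 0.524). In the list of 21, 13 were fitted higher and 8 lower (median 0.13). At an unadjusted p under 0.05, 3 (14.3%) were higher and 2 (9.52%) lower, against 5.6% and 7.8% of all genes.

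Atrophy and regeneration genes gave no DE member. Of 27 atrophy and autophagy genes, 11 were fitted higher and 16 lower (median -0.01). TRIM63, the muscle ubiquitin ligase MuRF1, was lower in 6 of 6 paired animals, but animal 20456 had the top washout value and the ranges were 242 to 713 CPM pre-treatment and 187 to 1090 CPM at washout (log2 fold change -0.67, SE 0.35, edgeR adjusted p = 0.415). Its partner ligase FBXO32 had a log2 fold change of 0.16 (SE 0.27, edgeR adjusted p = 0.843), and FOXO1, which activates both, one of -0.40 (SE 0.38, edgeR adjusted p = 0.691). MYF6, a myogenic factor of mature fibers, measured 64.0 to 304 CPM pre-treatment and 51.3 to 131 CPM at washout and was lower in 6 of 6 animals (log2 fold change -0.78, SE 0.20, edgeR adjusted p = 0.163). MYOG, which drives terminal differentiation, had medians of 59.1 and 30.04 CPM (log2 fold change -0.97, SE 0.40, edgeR adjusted p = 0.324). MYOD1 and the satellite cell factor PAX7 had log2 fold changes of -0.21 (SE 0.27, edgeR adjusted p = 0.777) and -0.18 (SE 0.26, edgeR adjusted p = 0.811). Over 21 myogenic and satellite cell genes, 16 were fitted lower (median -0.10). At an unadjusted p under 0.05, 2 (9.52%) were lower and 1 (4.76%) higher, near the 7.8% and 5.6% of all genes.

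Clock and glucocorticoid genes depend on the hour of biopsy and on stress, neither of which is among the labels. CLOCK, the transcription factor at the core of the clock, measured 30.9 to 41.1 CPM pre-treatment and 39.1 to 56.7 CPM at washout, higher in 6 of 6 animals (log2 fold change 0.35, SE 0.10, edgeR adjusted p = 0.209). PER1, a repressor of CLOCK that is also induced by glucocorticoids, ranged over 31.7 to 344 CPM and 47.6 to 111 CPM (log2 fold change -0.82, SE 0.33, edgeR adjusted p = 0.321). The medians were 0.02 over 18 clock genes and -0.24 over 15 glucocorticoid response genes. Of the latter, 5 (33.3%) were lower and 2 (13.3%) higher with unadjusted p values under 0.05, against 7.8% and 5.6% of all genes. FKBP5, a chaperone induced by glucocorticoids, pointed upward in 6 of 6 animals (log2 fold change 0.79, SE 0.39, edgeR adjusted p = 0.392), unlike DUSP1 and PER1 of the same list. The part of sampling time or stress in any difference was not tested.

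Receptors for FGF21 and secreted factors of muscle did not separate the groups. FGFR1, the main receptor for FGF21, measured 26.7 to 79.1 CPM pre-treatment and 23.8 to 96.5 CPM at washout (log2 fold change -0.03, SE 0.38, edgeR adjusted p = 0.980). KLB, which encodes beta-klotho, was scarce, with 0 to 3.34 CPM and 0.159 to 1.08 CPM (log2 fold change -0.56, SE 0.64, edgeR adjusted p = 0.748). Over 18 genes of FGF21 receptors and ERK feedback the median was -0.02, and over 17 myokines and secreted factors 0.04. APLN, the exercise-induced peptide apelin, had a log2 fold change of 0.57 (SE 0.29, edgeR adjusted p = 0.409).

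Markers of other cell types moved with single animals, and in bulk tissue fewer cells of a type and less RNA per cell cannot be told apart. Erythroid genes were the exception, with a list median above 0 in each of the 6 animals, although 1 tested member went the other way. HBB, the beta-globin of red cells, measured 7.98 to 126 CPM pre-treatment (median 37.9) and 62.7 to 1616 CPM at washout (median 833). It was higher in 6 of 6 animals but overlapped between groups (log2 fold change 3.62, SE 1.29, edgeR adjusted p = 0.287), and reads can be shared with other globins. ALAS2, the erythroid enzyme of heme synthesis, had medians of 0.321 and 6.06 CPM (log2 fold change 4.42, SE 1.33, edgeR adjusted p = 0.234). Of 7 erythroid markers in the table, 4 were tested, and 2 were at 0 in all libraries of both groups. At an unadjusted p under 0.05, 3 of the 4 were higher and 1 was lower, against 5.6% and 7.8% of all genes. Summed over the list, the levels were 8.25 to 133 CPM pre-treatment, 63.4 to 1629 CPM at washout and 16.5 to 4279 CPM post-treatment, the widest range being post-treatment. Their part in the results was not tested.

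Unlike neutrophil markers (medians 1.85 and 0.09), those of fibroblasts and macrophages and the matrix genes went opposite ways in animals 22130 and 24849. The medians of the fibroblast markers were 2.33 and -2.37 in them, those of the macrophage markers 2.91 and -2.75, and those of collagens and matrix genes 2.28 and -2.27, while the fitted medians were 0.06, 0.04 and 0.10. Without the washout library of animal 22130 the fitted medians turned to -0.66, -0.78 and -0.54. The levels summed over the 11 fibroblast markers ranged from 569 to 5392 CPM pre-treatment and from 457 to 5160 CPM at washout. Those of 14 macrophage markers ranged from 182 to 374 and from 147 to 620 CPM. All 7 smooth muscle and pericyte genes tested were fitted higher (median 0.56), with summed levels of 98.2 to 236 and 80.3 to 479 CPM, and the smallest adjusted p was that of NOTCH3, a receptor of mural cells (log2 fold change 0.70, SE 0.24, adjusted p = 0.267). The fitted medians of endothelial markers (0.05), T and B cell markers (0.27), neutrophil markers (-0.05), nerve markers (-0.11) and adipocyte markers (-0.28) came with wide ranges by animal. Single members of these lists included VWF of endothelium (0.52, SE 0.20, edgeR adjusted p = 0.305), MBP of myelin (0.90, SE 0.30, edgeR adjusted p = 0.267) and the fibroblast receptor PDGFRA (1.09, SE 0.53, edgeR adjusted p = 0.395). The lymphocyte receptor IL7R (1.51, SE 0.54, edgeR adjusted p = 0.284) and the neutrophil receptor CSF3R (2.66, SE 0.83, edgeR adjusted p = 0.230) rested on levels from 0 to 1.44 and from 0 to 3.98 CPM. Leptin (LEP) had a log2 fold change of -1.01 (SE 0.84, edgeR adjusted p = 0.643) and THBS4, a matrix protein of tendon and muscle, one of 1.38 (SE 0.83, edgeR adjusted p = 0.493). All RNA was selected for an integrity number above 8, but the value of each library is not among the labels.

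The 6 paired animals differed in how far and which way SM moved. Genes that differed by more than 1 on the log2 scale were fewest in animal 21189, with 441 up and 398 down, while animal 19832 had 1146 up and 1973 down. Animal 22130 had 2456 up and 654 down, whereas animal 24849 had 238 up and 1851 down. As a description across the genes tested, the Spearman correlation of the change in an animal with the mean change of the other animals was 0.55 in animal 20275, 0.46 in animal 19832, 0.38 in animal 23004 and 0.35 in animal 21189. It was 0.12 in animal 24849 and -0.16 in animal 22130, whose changes thus ran partly against those of the others.

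The washout change of SM was set against that of AT, which came from the same cohort and is the tissue in which the study followed FGF21 further. Over the 12322 genes tested in both tissues, the change was larger in SM for 1009 genes (8.19%) and smaller for 1089 (8.84%) by edgeR's test of the interaction at an adjusted p under 0.05. All 8 genes that rose in SM were lower in AT at washout, with log2 fold changes from -1.99 to -0.73 and adjusted p of at most 0.00409 in AT. Of all 12322 genes, 3590 were fitted higher in SM and lower in AT. The share of all genes lower in AT at such an adjusted p is not given here, and the study reported many DE genes in AT at washout. RC3H2 showed the widest gap, 4.30 (SE 0.41), with an AT log2 fold change of -1.99. DDI2 differed by 4.06 (SE 0.35), EPHA3 by 4.09 (SE 0.56), LRP6 by 3.68 (SE 0.40) and SKIL by 3.47 (SE 0.36). The differences of PYGO1 at 2.98 (SE 0.36), GFPT1 at 2.52 (SE 0.25) and PHF20L1 at 2.01 (SE 0.27) were smaller. The adjusted p of these differences was at most 5.64e-06, but the genes had been chosen by their increase in SM, which is a part of each difference, so that only the AT values were independent of that choice. Across all genes the log2 fold changes of SM and AT had a Pearson correlation of -0.37 and a Spearman correlation of -0.35, and 4909 genes (39.8%) had the same sign. This is a description over genes, which are not independent, of tissues that share animals but no library.

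**Figure D5:**
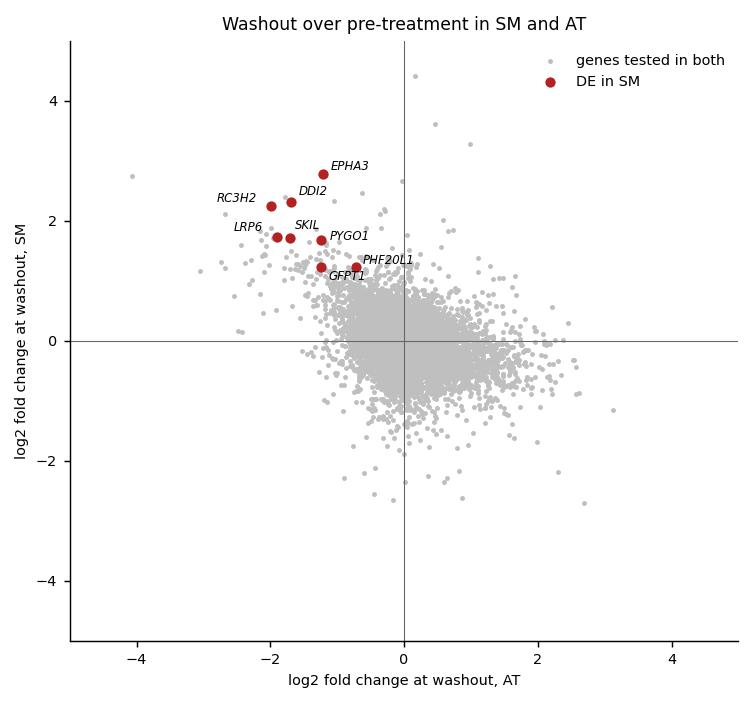
Log2 fold changes of washout over pre-treatment in AT (horizontal axis) and SM (vertical axis) for the genes tested in both tissues, with the 8 genes DE in SM in red. The 8 genes lie in the upper left quadrant, higher in SM and lower in AT, a quadrant shared by 3590 of the 12322 genes.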

How the data were processed

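RNA of subcutaneous AT and gastrocnemius SM biopsies was sequenced as stranded mRNA libraries. The authors used STAR and the MacaM assembly for alignment, and the deposited values are whole-number counts per gene that were not normalized, and per the labels and methods the version of STAR and the tool used for counting are not given in the sources used here. Of 51 labelled samples, 48 had counts, and of 24 SM samples 21 did. The table held 16103 entries, of which 70 repeated a gene and were dropped, leaving 16033 genes. Groups were taken from the labels. The labels tie the libraries to animals but do not say that biopsies were repeated within a time point, so n is the number of animals.

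Genes reaching 0.5 CPM in 10% or more of the SM libraries were tested in 1 fit of the 21 SM libraries, post-treatment included, with time point and animal in the model, by robust quasi-likelihood F tests (two-sided) of edgeR 4.0.16 in R 4.3.3 with TMM normalization and Benjamini-Hochberg adjustment over the 12617 genes. The fitted fold changes came from this model, in which the washout library of animal 20456, with no pre-treatment partner, contributed through the post-treatment libraries. The log2 CPM had a prior count of 2. The study used limma, which was an alternative here, since counts call for a count model. The washout change of SM was tested against that of AT as an interaction over 12322 genes. Gene lists were counted and got no test. Depth was 14455195 to 20292476 counts per library, so that at 0.5 CPM a library holds few counts, and the spread between animals limits the rest.

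The fit was tested on simulated data for SM at washout with 200 genes changed by a log2 fold change of 1.5, of which 171 were recovered beside 7 false calls among 12442 genes. For the difference between tissues 158 of 195 were recovered beside 10 false calls among 12150. The simulated counts held no effects of animal or identifier series and drew genes independently, so these rates need not hold for the real libraries. The pairing comes from the animal in the labels. Libraries of the same animal correlated in their deviations from the time point means with a median r of 0.279 over 19 pairs, against -0.0464 over 127 pairs of different animals, and over the 6 pre-treatment and washout pairs the median was 0.354 (-0.163 to 0.584).

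The comparison and the gene lists were chosen with earlier results of these data known. The rule for named genes took every DE gene, the 8 genes of smallest p that averaged 1 CPM or more and were lower in every paired animal, the member of each list with the smallest p, and a set of fixed muscle genes. Of these, 73 were tested, ATP2A1, RYR1 and IRS2 have no row in the table used, and 7 (HK2, LPL, FOXO3, ARNTL, COL1A1, COL3A1 and MSR1) had log2 fold changes from -0.44 to 0.68 with adjusted p of at least 0.749. A further 18 genes were named after their values were seen: LNPEP, FILIP1, CACNA2D1, KDM5A, GSK3B, BMPR2, PRKAB2, PPARA, TTN, HBB, FOS, MYC, MYOG, COX6C, PSMB1, RPL34, FKBP5 and RSC1A1.

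The alternatives were limma 3.58.1 (voom with and without quality weights), DESeq2 1.42.0, edgeR's legacy and non-robust tests, other normalizations and filters, no animal in the model, subsets of libraries, the identifier series, 1 surrogate variable of sva 3.50.0, no fold limit, and each animal left out. Leaving out single libraries of animals 19832 and 22130 was added after the data were seen. NumPy 2.4.6, pandas 2.3.3 and matplotlib 3.10.9 in Python 3.11.15 made the summaries and plots. No genome or sequence of the MacaM build was used here.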

Additional observations from a re-analysis of the deposited data

Results flagged for a closer look

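Single libraries stood far from the rest of their group in 14 of 190 groups of values examined (7.37%), where chance alone gives about 1 in 20. Each was picked out because the gap from the highest or lowest library to the nearest other, as a share of the whole range on the log2 CPM scale, exceeded Dixon's limit for the group size. The pre-treatment library of animal 19832 was lowest for NCOA2 (0.763 of the range), GSK3B (0.741) and GFPT1 (0.631) and highest for CSF3R (0.693) and DDIT4 (0.656). Animal 22130 was lowest pre-treatment for MYH7 (0.876) and highest for CHRNB1 (0.670), and at washout it was lowest for MRPL40 (0.656) and for the summed muscle fiber markers (0.569). Animal 20275 was highest pre-treatment for PDK4 (0.810) and PPARGC1A (0.778). LEP was highest in animal 24849 pre-treatment (0.642) and in animal 20456 at washout (0.662), and PDZD11 was highest at washout in animal 23004 (0.762).

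The washout change of 37 of the 84 named genes differed between SM and AT by edgeR's test of the interaction. Many of the 84 had been named by their change in SM, which is a part of each difference, so that their count is no independent result. Over all 12322 genes tested in both tissues, the change was larger in SM for 8.19% and smaller for 8.84%. The values here are the log2 change in SM minus that in AT. For the genes DE in SM they were 4.06 for DDI2, 3.47 for SKIL, 3.68 for LRP6, 4.09 for EPHA3, 2.52 for GFPT1, 2.01 for PHF20L1, 4.30 for RC3H2 and 2.98 for PYGO1, and for RSC1A1, which overlaps DDI2, the value was 2.01. Other positive differences were 4.03 for CACNA2D1, 3.33 for LNPEP, 2.98 for BMPR2, 2.83 for KDM5A, 2.82 for NCOA2, 2.62 for PRKAB2, 2.03 for FILIP1, 1.73 for GSK3B, 1.65 for PIK3CA, 1.18 for PPARA and 1.02 for CLOCK. Those of ALAS2 (4.35), PDGFRA (2.57), MBP (1.57) and FKBP5 (1.41) were also positive. Negative differences, meaning a lower change in SM, were -1.06 for ING3, -1.54 for GADD45G, -1.42 for ZFP36, -1.24 for MAP3K8, -1.18 for DUSP1, -0.80 for ZNF805 and -0.98 for NFKBIA. They were -1.59 for MYF6, -1.24 for TRIM63, -1.18 for DDIT4, -0.88 for DDIT3, -0.80 for RPL34 and -0.65 for COX6C. Most of these genes were not DE in SM, and the part of the AT change in the difference varied. The log2 fold change in AT was -2.15 for BMPR2 but 0.09 for DUSP1 and 0.10 for DDIT4, whose differences lay mostly in SM. For GADD45G it was -0.60, the same direction as in SM.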

How the results depend on the processing

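The 8 calls in SM depended on single libraries and on the model. Without animal 19832, 20275, 20456, 21189, 21866, 22130, 23004 or 24849, edgeR called 0, 1, 2, 1, 22, 0, 16 and 4 genes, a range of 0 to 22, and without only the pre-treatment library of animal 19832 it called 0. There were 11 calls with quality weights in limma (6 shared). The study used that tool too, but reported far more DE genes for this comparison, in both directions, and the reason was not tested. There were 2 calls with limma voom, 3 with legacy quasi-likelihood, 3 with library size as the only scaling and 22 with DESeq2 size factors. There were 17 with at least 10 counts in every library, 66 with 1 surrogate variable (58 higher) and 179 with DESeq2 (155 higher). Within the last identifier series there was 1 (0 shared with the 8), and 2518 genes had an unadjusted p under 0.05. With the series as a covariate 1355 were called, 52.6% of them higher compared to 100%. Without animal as a block, which ignores the pairing, 41 genes were called (38 higher). The differences between SM and AT numbered 2098, and 3738 with the series as a covariate, 1358 to 2264 with 1 animal left out (1358 without animal 20275), and 545 larger and 1723 smaller in SM with library size only. The causes were not tested.

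The called genes never changed sign. Of 76 uncalled genes named, 39 were called in some setting, 27 of them only with the series or DESeq2. With the series, the medians of glycolysis, insulin signaling and muscle fiber markers were 0.24, 0.39 and 0.60, compared to -0.06, 0.20 and 0.18. Signs turned for 12 genes, none called. Within the last series the values were -0.34 for MYL6B, -0.024 for ACTA1, -0.073 for UCP3, -0.17 for PPARGC1A, -0.27 for SLC2A4 and 0.44 for MSTN. With 1 surrogate variable they were -0.052 for PYGM, -0.045 for PFKM, -0.10 for SLC2A4 and 0.091 for FGFR1. Without the pre-treatment library of animal 19832 they were -0.022 for PFKM and 0.021 for FGFR1, and without the washout library of animal 22130 0.051 for CPT1B and 0.024 for MSTN. Quality weights gave -0.0055 for PDK4 and 0.026 for CPT1B, library size -0.054 for SLC2A4, the series 0.12 for MSTN, DESeq2 0.0013 and its size factors 0.0015 for FGFR1. With each animal left out in turn the values ran from -0.18 to 1.03 for PDK4, -0.21 to 0.020 for CPT1B, -0.40 to 0.16 for MSTN, -0.44 to 0.24 for FGFR1 and -0.94 to 0.46 for KLB.

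The biological coefficient of variation between SM libraries was 0.356, and with 6 and 7 animals a missed threshold does not show that a level was equal.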
